A study of Homo sapiens with 8 samples.

Results

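The RNA recovered with the RNA-binding protein QKI7 was deposited as lists of peaks, and most peaks lie within 1 exon. The peaks described here are those that join 3 or more exon blocks, the pieces of a peak that are separated by introns in the genome and that lie next to each other in the spliced RNA. They were chosen by 1 value, the number of exon blocks listed for a peak, and they made up 1805 of 42083 peaks. Peaks of different lists were matched when they shared at least 1 base of exon blocks on the same chromosome and strand. Joined in this way, the 42083 peaks formed 14330 sites, and 690 of them held a peak of 3 or more blocks in at least 1 list. These 690 sites lay in 609 of the 6520 genes with any peak (9.34%).

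The study used HepG2 cells, an established human liver cancer line, that carried Cas9 and stably expressed 3 x Flag-QKI7. Cells had received a guide RNA against METTL1 (sgMETTL1) or a control guide (sgNS), with 2 replicates of each. RNA bound to the tagged protein was cross-linked with UV light, sheared by sonication and recovered with a Flag antibody (the IP), and RNA taken before recovery served as the input. Each of the 4 lists came from 1 IP and 1 input sample, so all values concern the tagged transgene product and RNA bound to it in a population of guide-treated cells. No label states that the replicates were separate cultures, or whether the cells were 1 clone. All p-values here therefore reflect the spread among 4 lists, which may be technical.

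QKI7 is a splice isoform of Quaking, a member of the STAR family of RNA-binding proteins. Its KH domain binds short elements such as ACTAAC or ACTAAT in pre-mRNA and mRNA, and Quaking proteins are known for roles in splicing, RNA stability and transport. METTL1 with its partner WDR4 places 7-methylguanosine inside tRNAs and other RNAs. A peak listed as several exon blocks follows the exons of a gene and leaves out the introns between them.

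A small set of these peaks reached the first exon of the gene, and the genomic sequence around such starts is given from RefSeq (build GRCh38.p14) because the position of a peak within its gene is compared further on. In 3 genes the peaks of all 4 lists covered bases within 30 of the gene's start. Each sequence holds 30 bases before and 30 bases from the start on the transcribed strand, and capitals mark the bases inside the peaks of all 4 lists. ACP1, a phosphatase gene, is shown at chr2:264917-264976 on the plus strand. CAMTA1, a transcription factor gene, is shown at chr1:6785424-6785483 on the plus strand. DMPK, the kinase gene whose repeat expansion causes myotonic dystrophy, is shown at chr19:45782461-45782520 on the minus strand.
ACP1: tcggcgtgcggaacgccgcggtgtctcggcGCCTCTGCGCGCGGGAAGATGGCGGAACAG
CAMTA1: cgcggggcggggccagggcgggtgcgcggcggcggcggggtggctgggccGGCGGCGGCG
DMPK: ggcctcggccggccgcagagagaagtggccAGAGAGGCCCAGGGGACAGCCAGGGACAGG
The peak over the ACP1 start had 3 blocks in every list and folds of 1.79 and 1.69 with sgMETTL1, against 2.43 and 2.41 with sgNS. The peak over the CAMTA1 start had 5 blocks in every list and folds of 13.2 and 14.6 with sgMETTL1, against 20 and 23.2 with sgNS. The peak over the DMPK start had 5 and 5 blocks and folds of 13.9 and 17.8 with sgMETTL1, against 5 and 15 blocks and folds of 33.9 and 16.9 with sgNS. Both sgMETTL1 folds lay below both sgNS folds at ACP1 and CAMTA1, as they did at 38.8% of all sites present in the 4 lists, and at DMPK 1 sgNS value lay between the sgMETTL1 values. The letters ACTAAC or ACTAAT were searched on the transcribed strand of the first 50 bases of each RefSeq gene start. They stood in 219 of 27305 such windows (0.802%) and in 0 of the 19 genes whose peak of 3 or more blocks covered bases within 30 of the start in any list. At so low a share, 19 genes are too few to show a lack of these letters. Bases further into the peaks were not searched.

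Each list gives for every peak a fold enrichment, the ratio of IP over input, and a p-value, both the authors' own. No source states a common scale for the folds of different lists, so folds were compared by rank within a list, and the depth behind a value is unknown. Peaks of 3 or more blocks numbered 414 of 10095 and 373 of 9388 with sgMETTL1, against 516 of 11562 and 502 of 11038 with sgNS. Their share of all peaks was 4.1% and 3.97% with sgMETTL1, against 4.46% and 4.55% with sgNS. The mean share was 4.04% ± 0.0904 with sgMETTL1 and 4.51% ± 0.0601 with sgNS (SD, n = 2 each). The guides did not overlap, but the exact permutation test gave p = 0.333, the smallest value that 2 lists against 2 can give.

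**Figure D1:**
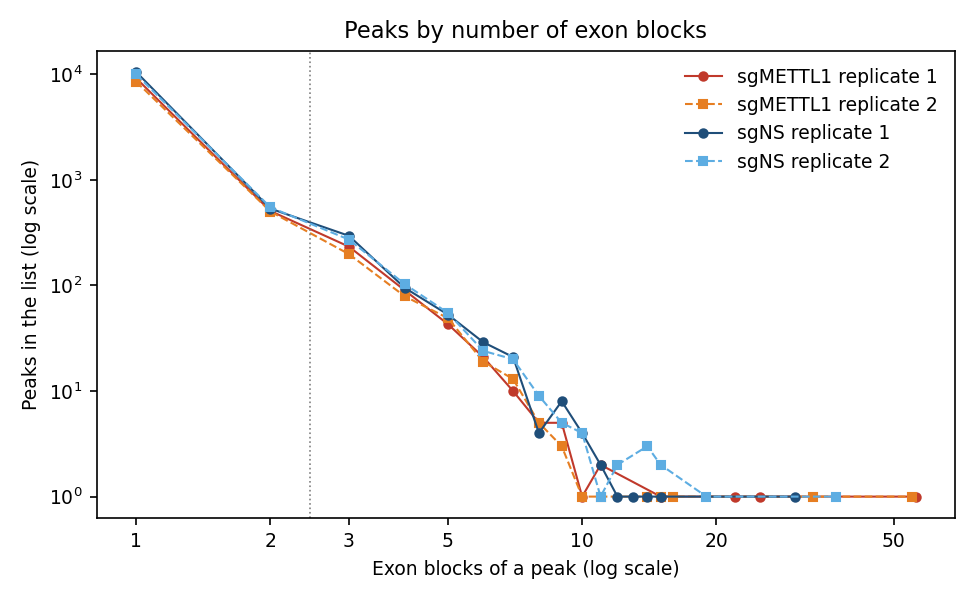
Number of peaks (log scale) by number of exon blocks of a peak (log scale) in each of the 4 lists; the dotted line separates peaks of 3 or more blocks. Counts drop steeply with block number in every list, and the peaks with the most blocks, 56 and 55, are in the sgMETTL1 lists, against 30 and 37 in the sgNS lists.

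Most of these peaks joined few exons. Those with exactly 3 blocks made up 56.3% and 53.1% of them with sgMETTL1, against 57.2% and 54.2% with sgNS. Peaks of 10 or more blocks were rare, with 7 and 7 in the sgMETTL1 lists and 11 and 14 in the sgNS lists. Over all 4 lists the 1805 peaks held 7494 blocks with a median of 95 bases, and the median of inner blocks was 105 bases. A peak covered 61 to 6915 exon bases, with a median of 449, and these made up a median of 7.81% of its span in the genome. Only 20 of the 1805 peaks covered fewer than 100 exon bases. The last block in the direction of transcription was the largest in 44.0% and 45.3% of the peaks with sgMETTL1, against 50.4% and 51.0% with sgNS.

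Just inside the rule, peaks of 3 blocks had median folds of 3.74 and 4.03 with sgMETTL1, against 4.28 and 3.42 with sgNS. Just outside it, peaks of 2 blocks had median folds of 3.81 and 4.03 with sgMETTL1, against 4.53 and 3.84 with sgNS. The median fold of peaks of 3 blocks was thus at or below that of peaks of 2 blocks in every list. Peaks of 4 blocks had median folds of 4.64 and 3.74 with sgMETTL1, against 6.94 and 5.42 with sgNS. Peaks of 10 or more blocks had median folds of 11.3 and 14.8 with sgMETTL1, against 10.2 and 16.2 with sgNS, so median folds were above those of peaks of 3 blocks in this class but not at 4 blocks in sgMETTL1 replicate 2. Across the peaks of 3 or more blocks of a list, Spearman's rho of fold with block number was 0.239 and 0.232 with sgMETTL1, against 0.245 and 0.345 with sgNS. With exon bases it was 0.716 and 0.664 with sgMETTL1, against 0.719 and 0.73 with sgNS. These describe 414, 373, 516 and 502 peaks, which share a list and its depth, and genes with several peaks are in them more than once.

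The median fold of these peaks was above that of peaks of 1 block in every list, and their p ranked high. The median fold was 4.63 and 4.7 with sgMETTL1, against 5.62 and 4.97 with sgNS. Peaks of 1 block had medians of 4.51 and 4.44 with sgMETTL1, against 4.52 and 4.31 with sgNS. Ranked by p, where 0% is the top of the list, the median peak of 3 or more blocks stood at 23.1% and 23.6% with sgMETTL1, against 21.5% and 20.4% with sgNS. They were also longer, with median exon lengths of 404 and 421 bases with sgMETTL1, against 479 and 450 bases with sgNS. Peaks of 1 block covered medians of 240 and 241 bases with sgMETTL1, against 270 and 270 bases with sgNS. The medians of both kinds were lower in both sgMETTL1 lists.

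The middle of peaks of 3 or more blocks lay further from the 3′ end than that of peaks of 1 block. Their middle stood at a median of 76.8% and 75.2% of the gene's length with sgMETTL1, against 78.1% and 78.1% with sgNS, where 100% is the 3′ end. For peaks of 1 block these medians were 97.1% and 97.1% with sgMETTL1, against 97.2% and 97.1% with sgNS. The middle also depends on the genomic span of a peak, whose median was 6557 bases over the 1805 peaks. The share ending within 100 bases of the 3′ end was 14.3% and 14.7% with sgMETTL1, against 17.1% and 17.9% with sgNS. For peaks of 1 block that share was similar, 15.7% and 15.8% with sgMETTL1, against 17.7% and 17.4% with sgNS. Positions refer to the span of the RefSeq gene, without transcript models. Of the 1805 peaks, 264 ended within 100 bases of the gene's 3′ end, 69 began within 100 bases of its 5′ end, 28 did both and 1435 lay inside, while 9 had no matched gene. The peaks at a 3′ end had the higher folds, with medians of 22.2 and 28.5 with sgMETTL1, against 23.6 and 21.3 with sgNS. Those inside a gene had medians of 3.83 and 3.88 with sgMETTL1, against 4.36 and 3.86 with sgNS. Those at a 5′ end had medians of 3.66 and 5.0 with sgMETTL1, against 8.22 and 11.7 with sgNS, over only 11 and 16 peaks with sgMETTL1 and 22 and 20 with sgNS. Over all lists the median length was 1280 exon bases at a 3′ end and 390 inside. Peaks of 1 block also had higher folds at a 3′ end, with medians of 7.62 and 7.71 with sgMETTL1, against 7.87 and 7.46 with sgNS. Inside a gene their medians were 4.12 and 4.04 with sgMETTL1, against 4 and 3.87 with sgNS.

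**Figure D2:**
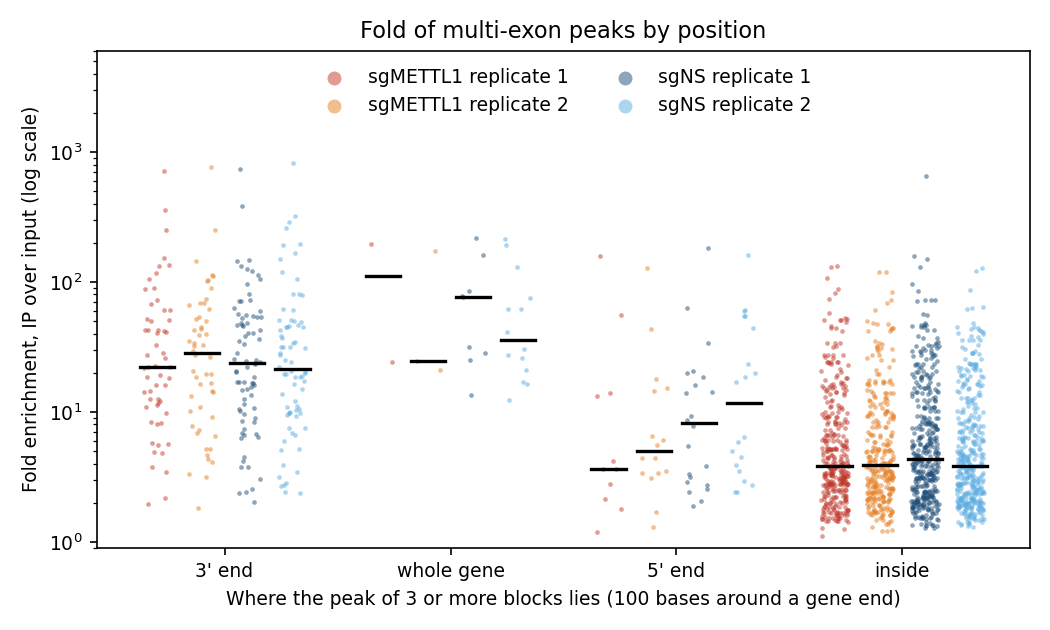
Fold enrichment of IP over input (log scale) of each peak of 3 or more blocks, by its position in the gene and by list; black bars are medians. In every list the median at the 3′ end is above the median inside the gene, with medians of 22.2 and 28.5 against 3.83 and 3.88 in the sgMETTL1 lists.

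The 28 peaks that ran from 1 end of the gene to the other numbered 2 and 3 in the sgMETTL1 lists and 9 and 14 in the sgNS lists, in 14 genes. ATPIF1, now ATP5IF1, the inhibitor of mitochondrial ATP synthase, was covered end to end in all 4 lists, with folds of 24.1 and 24.8 with sgMETTL1, against 31.6 and 27.4 with sgNS. TTYH3, a membrane protein of the tweety family, was covered in sgMETTL1 replicate 2 and both sgNS lists. In CPLX1, CXCL16, DMWD, ERH, FAM96B and ZNF213 both sgNS lists and neither sgMETTL1 list had such a peak. CDR2L, DBNDD2, DMPK, PEA15 and ZFAND3 had it in sgNS replicate 2 alone of the 4 lists. End-to-end peaks made up 0.483% and 0.804% of the peaks of 3 or more blocks with sgMETTL1, against 1.74% and 2.79% with sgNS. The difference in these counts was not tested.

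Peaks of 3 or more blocks were found again in the other replicate more often than not. Of those in sgMETTL1 replicate 1, 88.9% were met by a peak of replicate 2 (exact Clopper-Pearson 95% interval 85.5 to 91.7%), and 93.0% the other way round (90.0 to 95.4%). Of those in sgNS replicate 1, 94.6% were met by a peak of replicate 2 (92.3 to 96.4%), and 92.8% the other way round (90.2 to 94.9%). The intervals cover counting error only. Peaks of 1 block were met in 73.0% and 77.6% of cases with sgMETTL1, against 78.1% and 83.2% with sgNS. A longer peak has more bases to share, so the 2 kinds of peak are not matched in this respect. The partner peak also had 3 or more blocks in 72.7% and 80.2% of cases with sgMETTL1, against 79.8% and 81.5% with sgNS.

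Of the 690 sites, 471 (68.3%) had a peak in all 4 lists, against 41.1% of all 14330 sites. Only 242 of the 690 had 3 or more blocks in every list, while 93 had them in 3 lists, 143 in 2 and 212 in 1. Of the 690 sites, 401 and 357 had 3 or more blocks in the sgMETTL1 lists, against 499 and 488 in the sgNS lists. A site could hold several peaks of a list, which was so at 98 and 91 sites with sgMETTL1, against 60 and 65 with sgNS, so a stretch that was 1 peak in one list could be broken into several in another. Below, the block number of a site is that of its largest peak, the fold is that of its strongest peak, and exon bases are summed over its peaks. Blocks summed over all peaks of a site were added after the data were seen, and an exon split between peaks counts in each.

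By the mean over the 4 lists, the site with the most joined exons lay in a collagen gene. It led in the sgMETTL1 lists only, since in both sgNS lists the AGRN site described below had more blocks, 30 and 37. COL27A1, which encodes a fibrillar collagen chain, had a site at chr9:114169454-114311319 on the plus strand. Its largest peak joined 56 and 55 blocks over 3172 and 2993 exon bases with sgMETTL1, against 11 and 19 blocks over 719 and 1257 exon bases with sgNS. Summed over all peaks of the site, there were 60 and 59 blocks over 3713 and 4071 exon bases with sgMETTL1, against 29 and 36 blocks over 1559 and 2067 exon bases with sgNS. The folds were 7.25 and 14.8 with sgMETTL1, against 4.22 and 3.23 with sgNS. The guides did not overlap in blocks, bases or fold, and limma's adjusted p over all sites for the rank score (difference 1.24, SE 0.282) was 0.391. Of all 5895 sites, 0.424% had more blocks in the largest peak in both sgMETTL1 lists, 3.82% more exon bases and 9.74% higher folds.

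COL7A1, which encodes the collagen of the anchoring fibrils under the epidermis, had its largest site at chr3:48567014-48573207 on the minus strand. Its largest peak joined 22 and 16 blocks with sgMETTL1, against 9 and 5 with sgNS. Summed over its peaks the site had 22 and 23 blocks with sgMETTL1, against 15 and 5 with sgNS. The folds were 24.4 and 19.4 with sgMETTL1, against 7.87 and 4.23 with sgNS. Here too the guides did not overlap in either count of blocks or in fold, and limma's adjusted p (difference 1.28, SE 0.264) was 0.388. Of all 5895 sites, 0.424% had more blocks in the largest peak in both sgMETTL1 lists, 4.24% more summed and 9.74% higher folds. Ranked by p the site stood only at 48.6% and 46.1% with sgMETTL1, against 70.9% and 81.5% with sgNS. AGRN, the basement membrane proteoglycan agrin, had 25 and 33 blocks in its largest peak with sgMETTL1, against 30 and 37 with sgNS, and folds of 11.3 and 9.19 with sgMETTL1, against 10.2 and 14.9 with sgNS. Its values overlapped between the guides in both measures. Summed over its peaks, AGRN had 36 and 36 blocks with sgMETTL1, against 37 and 37 with sgNS.

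Of the other genes with many blocks, some had the same number in every list and some did not. DVL1, a Dishevelled protein that relays Wnt signals from Frizzled receptors, had 15 blocks and 2924 exon bases in every list, with folds of 51 and 35 with sgMETTL1, against 46.5 and 45.9 with sgNS. SSB, the La protein that binds the ends of nascent small RNAs, had 11 blocks in every list. Its folds were 4.95 and 4.34 with sgMETTL1, against 6.79 and 6.91 with sgNS. SNX9, a sorting nexin of endocytosis, had 9 and 9 blocks with sgMETTL1, against 9 and 10 with sgNS. HIPK2, a stress-activated kinase, had 8 and 7 blocks in its largest peak with sgMETTL1, against 12 and 12 with sgNS. Summed over its peaks it had 14 and 13 blocks with sgMETTL1, against 14 and 13 with sgNS, and its folds of 16.4 and 12 with sgMETTL1 overlapped with 8.27 and 15.5 with sgNS. The largest HIPK2 peak itself had folds of 3.73 and 3.8 with sgMETTL1, against 8.27 and 15.5 with sgNS. WAC, an adaptor of histone ubiquitination, had 11 and 7 blocks in its largest peak with sgMETTL1, against 13 and 8 with sgNS, and 13 and 14 summed with sgMETTL1, against 13 and 16 with sgNS. TTYH3 had 9 and 14 blocks in its largest peak with sgMETTL1, against 14 and 14 with sgNS, and 15 and 14 summed with sgMETTL1, against 14 and 14 with sgNS.

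**Figure D3:**
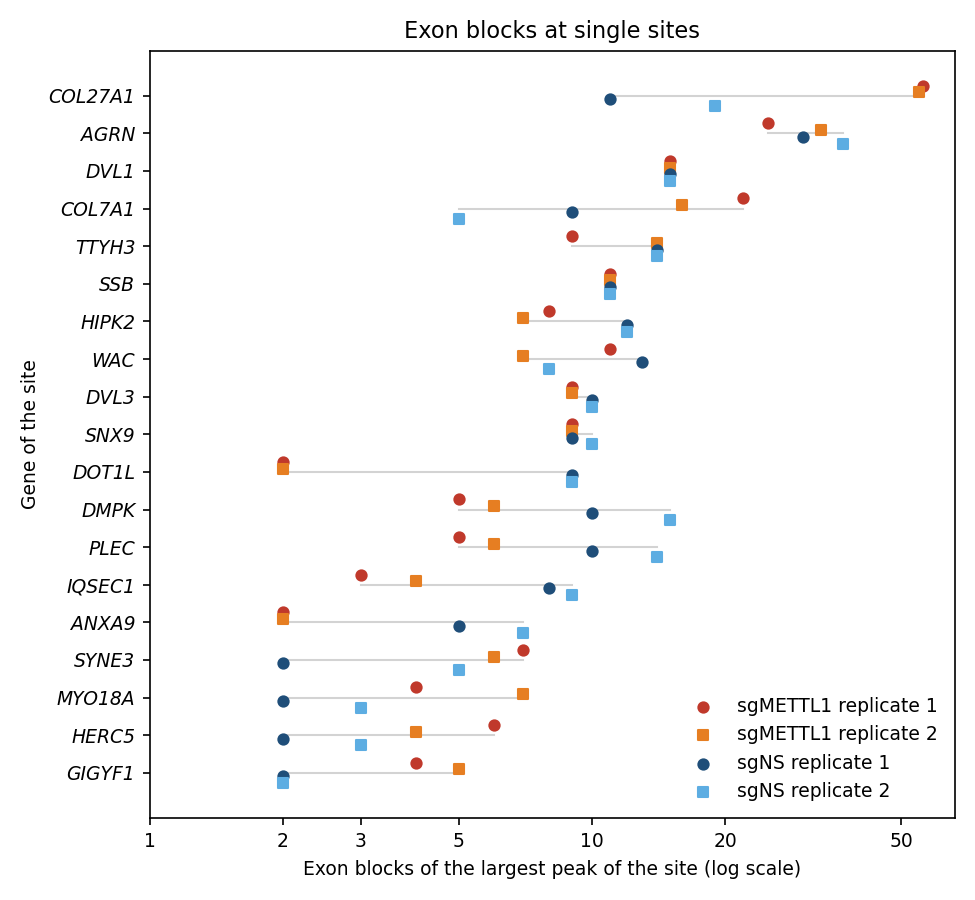
Number of exon blocks (log scale) of the largest peak at single sites in the 4 lists: above, the 10 sites with the most blocks, and below, sites picked after their values were seen for the largest differences in blocks between guides. COL27A1 reaches 56 and 55 blocks with sgMETTL1, against 11 and 19 with sgNS, and DOT1L has 2 and 2 with sgMETTL1, against 9 and 9 with sgNS.

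Among sites with 3 or more blocks in every list, folds were highest at IGF2 and DVL3. IGF2, the insulin-like growth factor made by fetal liver and liver tumours, stood first with 4 blocks and 4546 exon bases in every list at chr11:2129112-2147687. Its folds were 719 and 768 with sgMETTL1, against 744 and 815 with sgNS. DVL3, another Dishevelled protein, followed with a site at chr3:184165153-184173526 that reached the 3′ end. It had 9 and 9 blocks and folds of 360 and 250 with sgMETTL1, against 10 and 10 blocks and folds of 383 and 323 with sgNS.

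MBD2, which binds methylated DNA, had 7 blocks in every list and folds of 157 and 127 with sgMETTL1, against 183 and 160 with sgNS. The zinc finger gene ZNF213 had folds of 132 and 144 with sgMETTL1, against 162 and 193 with sgNS. Folds with sgMETTL1 lay below those with sgNS at both genes, while the rank scores gave limma's adjusted p of 0.899 for MBD2 and 0.847 for ZNF213. SKI, a repressor of TGF-beta signalling, had folds of 134 and 113 with sgMETTL1, against 133 and 166 with sgNS. In sgMETTL1 replicate 1 the value of 134 was not that of its largest peak, which had 5 blocks and a fold of 3.11. PICALM, a clathrin adaptor, had folds of 131 and 119 with sgMETTL1, against 130 and 121 with sgNS. CASKIN2, a scaffold protein, had 3 and 3 blocks in its largest peak with sgMETTL1, against 6 and 6 with sgNS, but 6 and 5 blocks summed with sgMETTL1, against 6 and 6 with sgNS. Its folds were 152 and 103 with sgMETTL1, against 126 and 105 with sgNS. At SKI, PICALM and CASKIN2 the folds overlapped between the guides.

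The comparison of guides at single sites asked whether the rank of a site's fold within its list differed. It used limma on the normal scores of the ranks of 5895 sites present in all 4 lists, 471 of them with a peak of 3 or more blocks in any list. After Benjamini-Hochberg adjustment at an FDR of 5% limma called 0 of the 5895 sites (0%), and 0 of the 471. The smallest adjusted p was 0.32. At an unadjusted p under 0.05, 609 of the 5895 sites passed. Of all sites 290 (4.92%) passed with lower and 319 (5.41%) with higher scores in sgMETTL1, and of the 471 sites 21 (4.46%) passed as lower and 32 (6.79%) as higher. The shares among the 471 sites lay near those among all sites.

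The median score difference of sgMETTL1 minus sgNS over the 471 sites was -0.0571, with 271 sites lower and 200 higher, beside a median of -0.0157 over all 5895 sites. On the log2 scale of the authors' folds, which assumes a common scale of the lists, these medians were -0.26 for the 471 sites and -0.22 for all. With ranks of p in place of ranks of fold the median over the 471 sites had the other sign, 0.033, beside 0.006 over all. The folds of the authors lay lower in both sgMETTL1 lists than in both sgNS lists at 215 of the 471 sites (45.6%), where 38.8% of all 5895 sites did so. They lay higher at 54 (11.5%), against 9.74% of all sites.

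**Figure D4:**
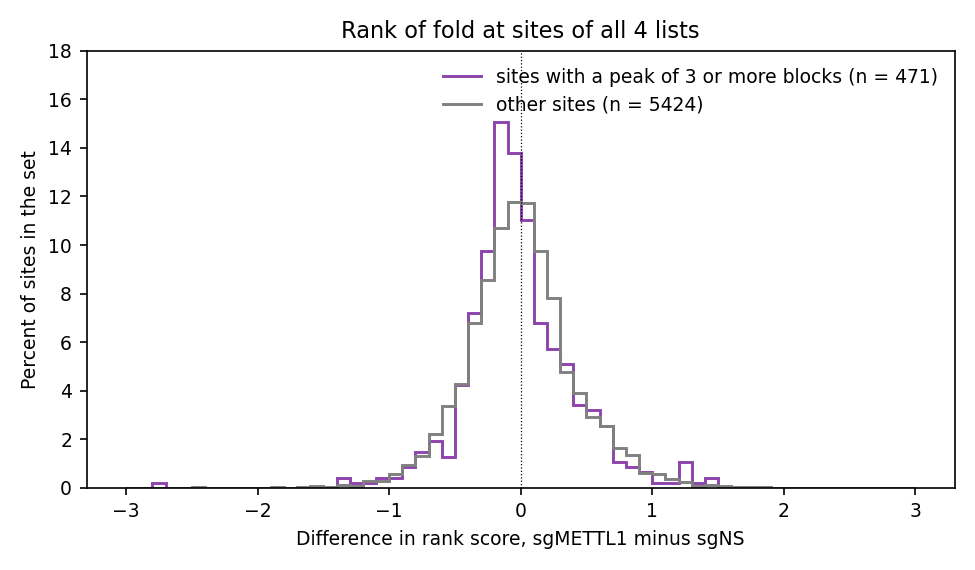
Distribution of the difference in rank score, sgMETTL1 minus sgNS, as percent of sites in the set, for the 471 sites with a peak of 3 or more blocks and for the other sites present in all 4 lists. Both distributions centre near 0, and the site farthest to the left, at -2.75, is the upstream DVL3 site.

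The number of blocks was the value that chose these sites, so its difference between guides is given as a description. At 120 of the 471 sites (25.5%) the largest peak had fewer blocks in both sgMETTL1 lists than in both sgNS lists, and at 20 (4.25%) they had more. Over all 5895 sites, most of which have 1 block and cannot have fewer, the counts were 171 (2.9%) and 25 (0.424%). Summed over the peaks of a site, blocks were fewer at 108 of the 471 sites (22.9%) and more at 28 (5.94%), and over all 5895 sites they were fewer at 192 (3.26%) and more at 250 (4.24%). Exon bases were fewer in both sgMETTL1 lists at 259 of the 471 sites (55.0%) and more at 42 (8.92%). Over all 5895 sites they were fewer at 2921 (49.6%) and more at 225 (3.82%). The median log2 difference in exon bases was -0.18 at the 471 sites and -0.24 at all sites. Sites with shorter peaks in both sgMETTL1 lists made up 49.6% of all sites, beside 55.0% of the 471. The sgMETTL1 lists also hold fewer peaks, 10095 and 9388 against 11562 and 11038 with sgNS, and the part of list size or depth in these differences was not tested.

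Among the sites with fewer blocks, the mean difference in the largest peak was widest at DOT1L and DMPK, with -7 blocks at each. DOT1L, the histone methyltransferase that marks transcribed genes, was picked after its values were seen. The largest peak of its site at chr19:2216630-2230389 had 2 and 2 blocks over 781 and 780 exon bases with sgMETTL1, against 9 and 9 blocks over 2909 and 2550 exon bases with sgNS. Summed over its peaks the site had 4 and 5 blocks over 931 and 1082 exon bases with sgMETTL1, against 9 and 10 blocks over 2909 and 2850 exon bases with sgNS. The folds were 2.96 and 3.17 with sgMETTL1, against 6.49 and 8.06 with sgNS (score difference -0.828, SE 0.208, limma's adjusted p 0.409). A site just upstream in DOT1L had no peak in sgMETTL1 replicate 1 and 1 block in replicate 2, against 6 and 8 blocks in the largest peak with sgNS.

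Picked in the same way, the largest DMPK peak had 5 and 6 blocks with sgMETTL1, against 10 and 15 with sgNS, and the summed blocks were 10 and 11 with sgMETTL1, against 15 and 15 with sgNS. IQSEC1, an exchange factor of ARF GTPases, had 3 and 4 blocks in its largest peak with sgMETTL1, against 8 and 9 with sgNS, and 4 and 5 summed with sgMETTL1, against 8 and 9 with sgNS. KIAA1549 had 2 and 2 blocks in its largest peak with sgMETTL1, against 7 and 5 with sgNS, and 4 and 3 summed with sgMETTL1, against 8 and 5 with sgNS. The folds of KIAA1549 were 28.7 and 30.8 with sgMETTL1, against 42.4 and 41.4 with sgNS, but its largest peak in sgMETTL1 replicate 2 had a fold of 2.69. At these 3 genes neither count of blocks overlapped between the guides, but they were picked by the blocks of their largest peak. Over all 5895 sites, 2.9% had fewer blocks in the largest peak in both sgMETTL1 lists, and 3.26% had fewer summed. Sites with more blocks included SPX, the peptide hormone spexin, with 6 and 5 blocks and folds of 44.2 and 25 with sgMETTL1, against 3 and 3 blocks and folds of 15.4 and 5.92 with sgNS. HERC5, the ligase that attaches ISG15, had 6 and 4 blocks and folds of 45.7 and 30.5 with sgMETTL1, against 2 and 3 blocks and folds of 12.7 and 35.9 with sgNS. The block numbers did not overlap at either gene, whereas the folds of HERC5 did. Both genes were picked by these block numbers, and over all 5895 sites 0.424% had more blocks in the largest peak in both sgMETTL1 lists.

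**Figure D5:**
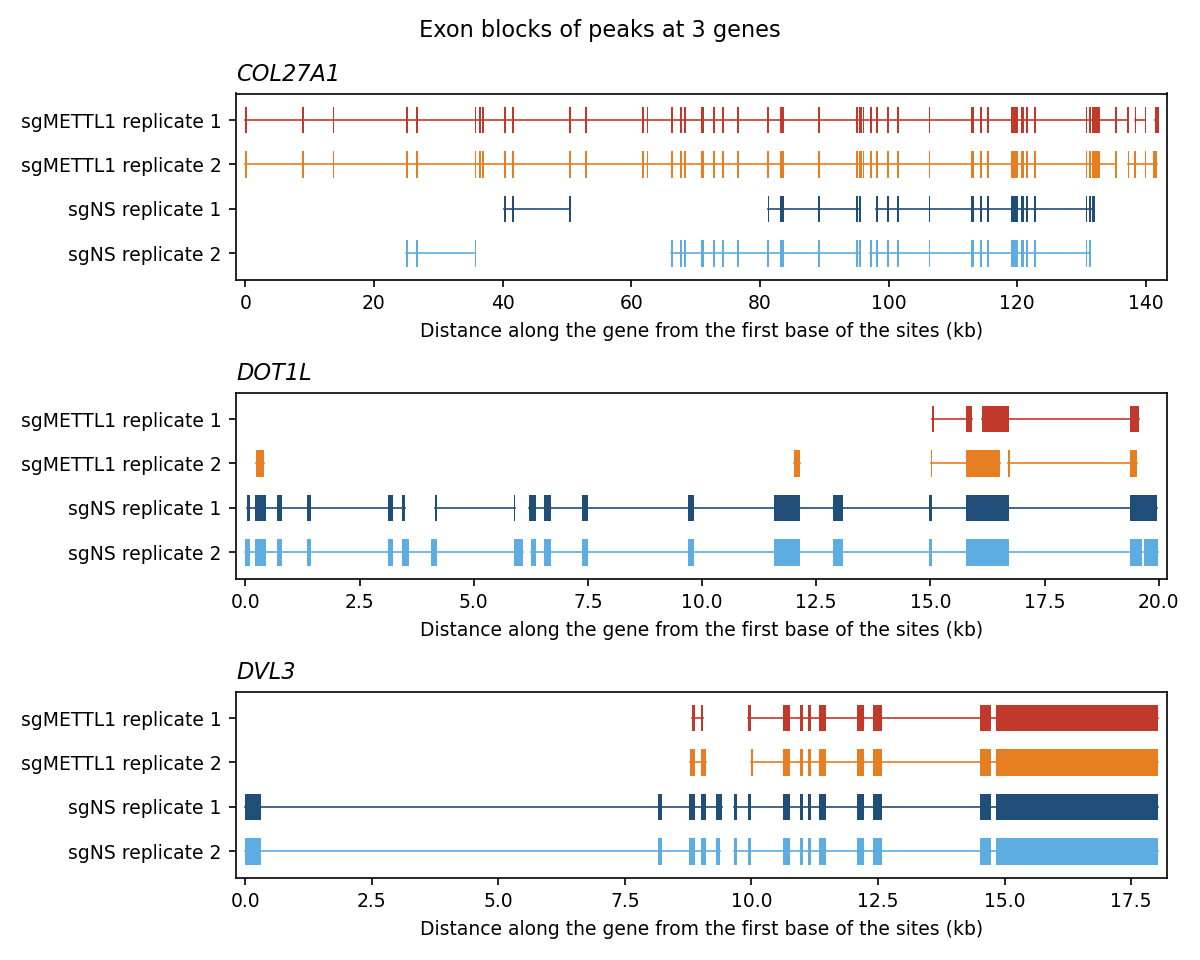
Exon blocks (boxes) of the peaks of COL27A1, DOT1L and DVL3 in each list, drawn (the shortest blocks widened to stay visible) against distance in kb along the direction of transcription from the first base of the sites; a line joins the blocks of 1 peak. Summed over peaks, the COL27A1 site has 60 and 59 blocks with sgMETTL1, against 29 and 36 with sgNS, and the larger DOT1L site has 4 and 5 with sgMETTL1, against 9 and 10 with sgNS; some peaks are broken into several in one list and joined in another.

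The site with the lowest score difference was the upstream DVL3 site at chr3:184155496-184164912, which starts at the 5′ side and ends just before the strong 3′ site. It had 2 and 2 blocks and folds of 1.32 and 1.43 with sgMETTL1, against 5 and 5 blocks and folds of 10.9 and 5.31 with sgNS. Its score difference was -2.75 (SE 0.3), and limma's adjusted p was 0.32. The next lowest by p were OSBPL9, an oxysterol-binding protein, PABPC1, the cytoplasmic poly(A)-binding protein, and NPIPB3. OSBPL9 had folds of 1.28 and 1.23 with sgMETTL1, against 1.86 and 2.1 with sgNS. PABPC1 had folds of 1.11 and 1.11 with sgMETTL1, against 1.5 and 1.47 with sgNS. NPIPB3 had folds of 3.52 and 3.7 with sgMETTL1, against 25.5 and 11.5 with sgNS, but it belongs to a family of near-identical copies and its reads are uncertain between them. None of these 4 sites passed the adjusted test with limma.

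On the other side stood MYH9, a non-muscle myosin heavy chain, RBM39, a splicing factor, NDEL1, a regulator of dynein, and MYO18A, an unconventional myosin. MYH9 had folds of 1.66 and 1.6 with sgMETTL1, against 1.24 and 1.26 with sgNS (score difference 1.49, SE 0.209, limma's adjusted p 0.32). RBM39 had folds of 1.98 and 1.79 with sgMETTL1, against 1.32 and 1.39 with sgNS. NDEL1 had folds of 1.68 and 1.84 with sgMETTL1, against 1.35 and 1.34 with sgNS. MYO18A had folds of 2.67 and 2.99 with sgMETTL1, against 1.66 and 1.78 with sgNS. The folds of the guides were separate at these 4 sites, which a pick by smallest p favours. Over all 5895 sites 9.74% had higher folds in both sgMETTL1 lists than in both sgNS lists. The folds of the 4 sites were low, and none passed the adjusted test with limma.

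Some sites were present with 1 guide and absent with the other. Of the 690 sites, 35 (5.07%) were covered in both sgNS lists and in neither sgMETTL1 list, where 7.5% of all 14330 sites did so. The reverse held at 23 sites (3.33%), where 1.21% of all sites did so. With equal numbers of peaks per list the counts were 29 and 27 of 678 sites, beside 703 and 239 of all 12282 sites. The counts depend on every list: without sgMETTL1 replicate 1 or 2 the first was 74 or 54, and the second was 39 or 43. Over all sites the first was then 1901 or 1648, and the second 967 or 1161. Without sgNS replicate 2 the second was 39, beside 311 over all sites. With a minimum of 5 blocks, which 175 sites met, the counts were 2 (1.14%) and 3 (1.71%). The difference from the other sites was not tested.

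The sites absent with sgMETTL1 that ranked best by p had low folds with sgNS. AXIN1, the scaffold of the complex that degrades beta-catenin, had folds of 1.68 and 1.78 and 3 blocks in each sgNS list. NKD1, an antagonist of Dishevelled, had folds of 1.32 and 1.48. SPATS2L had 1.28 and 1.31, the kinase CDC42BPA 2.22 and 2.59, and the small GTPase RAB12 2.02 and 2.15, the last with 5 blocks in each sgNS list. The sites absent with sgNS included 2 of SPTAN1 and 1 of SPTBN1, which encode spectrins of the membrane skeleton. The SPTAN1 sites had folds of 1.77 and 1.93 over 9 and 5 blocks, and of 1.75 and 1.8 over 5 and 4 blocks, with sgMETTL1. SPTBN1 had folds of 1.6 and 1.41 with sgMETTL1. PXMP2, a channel of the peroxisome membrane, had 6.45 and 8.08 with sgMETTL1, and PABPC1L, a relative of PABPC1, had 1.86 and 2.15 with sgMETTL1.

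Sites at the 3′ end of the gene were present in more lists than the other sites. Of the 108 sites with a peak of 3 or more blocks within 100 bases of a 3′ end, 106 (98.1%) were in all 4 lists, against 365 of the other 582 (62.7%). Their folds were also higher, with medians of 20.1 and 18.2 with sgMETTL1, against 23.5 and 20.8 with sgNS. At the other sites the medians were 4.64 and 4.19 with sgMETTL1, against 5.55 and 5.05 with sgNS. Of the 106 sites in all 4 lists, 32 (30.2%) had fewer and 2 (1.89%) more blocks in their largest peak in both sgMETTL1 lists than in both sgNS lists. Of the other 365 in all 4 lists, 88 (24.1%) had fewer and 18 (4.93%) more, and over all 5895 sites 2.9% had fewer and 0.424% more. The fold and the presence of a site in all lists move together, and their parts were not told apart.

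QKI itself had a site at chr6:163415152-163571106 on the plus strand with 8 blocks in every list and 1410 and 1410 exon bases with sgMETTL1, against 1440 and 1440 with sgNS. Its folds were 5.57 and 4.92 with sgMETTL1, against 10.1 and 9.94 with sgNS, and limma's adjusted p (difference -0.453, SE 0.182) was 0.489. RNA of the endogenous gene and of the Flag-QKI7 transgene cannot be told apart here. METTL1 and WDR4 had no peak in any list, so the peak lists give no check of the guide's target.

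Gene lists are described by the number of their genes with a peak of 3 or more blocks in any list, beside 9.34% of all genes with a peak. Of the known Quaking targets with a peak, 2 of 10 had one, QKI and SIRT2. In the Wnt pathway 6 of 18 had one: DVL1, DVL3 and GSK3A in all 4 lists, and AXIN1, GSK3B and TCF7L2 in both sgNS lists but not both sgMETTL1 lists. The same direction held over all 6520 genes with a peak, where 379 had one in both sgNS lists and 285 in both sgMETTL1 lists. At 85 of the 690 sites both sgNS lists and neither sgMETTL1 list had 3 or more blocks, and at 26 the reverse held. GSK3B, a kinase that marks beta-catenin for degradation, had 2 and 2 blocks and folds of 1.74 and 1.64 with sgMETTL1, against 4 and 4 blocks and folds of 2.04 and 2.17 with sgNS. TCF7L2, the transcription factor that acts with beta-catenin, had 1 and 1 blocks with sgMETTL1, against 4 and 3 with sgNS. Its folds were 10 and 14.4 with sgMETTL1, against 15.5 and 27.8 with sgNS. GSK3A had folds of 4.83 and 3.18 with sgMETTL1, against 6.27 and 5.12 with sgNS. Both sgMETTL1 folds lay below both sgNS folds at these 3 genes, as at 38.8% of all sites. On rank scores limma's adjusted p was 0.627 for GSK3B, 0.707 for TCF7L2 and 0.738 for GSK3A.

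Among splicing and RNA-binding proteins 9 of 30 genes had such a peak. MBNL3, a muscleblind splicing regulator, had 5 blocks in every list and folds of 18.2 and 16.4 with sgMETTL1, against 22 and 18.6 with sgNS. MBNL2, of the same family, had folds of 4.03 and 3.87 with sgMETTL1, against 6.37 and 4.87 with sgNS. Both sgMETTL1 folds lay below both sgNS folds at both genes, as at 38.8% of all sites, but the score difference was -0.023 (SE 0.181, limma's adjusted p 0.975) for MBNL3 and -0.192 (SE 0.193, adjusted p 0.755) for MBNL2. Chromatin regulators had such a peak in 5 of 30 genes, among them ARID2, a subunit of a SWI/SNF complex, with folds of 3.65 and 4.59 with sgMETTL1, against 6.26 and 6.45 with sgNS (limma's adjusted p 0.643). Of the ubiquitin ligases 3 of 21 had one, with BIRC6 at folds of 3.78 and 3.49 with sgMETTL1, against 4.86 and 4.78 with sgNS (limma's adjusted p 0.813). Of the translation factors 2 of 14 had one. EIF3A, a subunit of initiation factor eIF3, had folds of 4.63 and 4.14 with sgMETTL1, against 2.64 and 2.91 with sgNS (limma's adjusted p 0.391).

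Matrix and basement membrane genes had such a peak in 4 of 9 genes (AGRN, COL18A1, COL27A1 and COL7A1), and the insulin-like growth factor axis in 2 of 9 (IGF2 and IGF2BP2). Of the proteins secreted by hepatocytes only 6 genes had any peak, and only C5 had one of 3 or more blocks. Cytosolic ribosomal proteins had a peak of any kind in 2 of 20 genes and none of 3 or more blocks. Markers of hepatocytes had a peak of any kind in 6 of 11 genes, and markers of fibroblasts, blood and endothelium in 3 of 17, with none of 3 or more blocks in either list. Peak lists hold no expression level, so they give no direct check of the cell type.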

How the data were processed

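The series holds 8 samples in 4 groups, IP and input RNA for each guide with 2 replicates. Per the submitters' processing notes, STAR and the build GRCh38 were used; for versions, the peak caller, its thresholds and any scaling to depth, nothing is given in the sources used here. Each IP sample with its input has 1 deposited list of peaks. The fold enrichment is a ratio of IP over input, as deposited by the authors. The p-value of each peak and its base-10 logarithm, which runs past any usual range and was handled as a score, are also as deposited. Peaks carry gene names as deposited, some of them older symbols.

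Peaks that shared at least 1 base of exon blocks on 1 strand were joined into sites. A site's value in a list was its strongest fold, ranked within the list and turned into a normal score, and the guides were compared, 2 lists each, by limma 3.58.1 (R 4.3.3, two-sided, Benjamini-Hochberg over all sites). The fit was tested on simulated data. Positions are 1-based and were set against RefSeq genes of GRCh38.p14: 6197 of 6520 names were current symbols, 303 matched an older symbol and 20 did not match. Counts used Python 3.11.15 with pandas 2.3.3, numpy 2.4.6 and scipy 1.17.1, and figures matplotlib 3.10.9. Sequence was used only around RefSeq gene starts, so sequences and motifs of peaks elsewhere were not analysed here.

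The peaks, the gene lists and the tests were chosen with earlier results of these data known. Sites were named by rule: the 10 with the most blocks, the 8 with the best ranks by fold, up to 5 absent with each guide, the 4 with the smallest limma p on each side, QKI, METTL1 and WDR4, and up to 3 genes per list with 3 or more blocks in all 4 lists. One gene that the rule names is not reported here. Genes outside the rule are marked as picked after their values were seen, or belong to a gene list whose members are all named. Replicate numbers were not treated as pairs in the main test. The correlation of the deviations of same-numbered lists from their guide's mean was 0.011 over 5895 sites, which does not show how the samples were prepared. Alternatives were log2 folds, ranks of p, a replicate block, mean folds, a 50% overlap, equal list sizes, other block minimums and leaving out each list.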

Additional observations from a re-analysis of the deposited data

How the results depend on the processing

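limma called 0 sites under each of the 9 alternatives. The named sites of smallest p kept their direction under each of theirs, but most of these alternatives could not have changed it. At these sites both sgMETTL1 folds lay on the same side of both sgNS folds, by value and by rank. Leaving out a list, a replicate block and log2 folds therefore had to keep the sign. Mean folds and ranks of p could have changed it, but they come from the same lists that picked the sites. With the replicate number as a block 0 sites were called and 603 had an unadjusted p under 0.05, with a median difference over sites with 3 or more blocks of -0.057, as without the block. That median was -0.261 on log2 folds and 0.033, the other sign, on ranks of p; without 1 replicate it ran between -0.061 and -0.031. Sites absent with sgMETTL1 numbered 35, or 29 with equal numbers of peaks per list, 2 at a minimum of 5 blocks, and 49 to 74 without 1 replicate. Sites absent with sgNS numbered 23, or 27 with equal numbers of peaks per list, 3 at a minimum of 5 blocks, and 30 to 43 without 1 replicate. Leaving out lists for these counts was chosen after seeing the data, and dropping a list relaxes the rule by construction. The cause of the other changes was not tested. The difference in the share of peaks with 3 or more blocks was -0.468 percentage points, and -1.11 with equal numbers of peaks per list. The planned share of peaks with a QKI motif was not run, since sequence was used only around gene starts. The depth behind the lists is unknown.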

Other observations

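Collagen genes, a family picked after the values of COL27A1 and COL7A1 were seen, had a peak of 3 or more blocks in 7 of the 10 collagen genes with any peak, beside 9.34% of all genes with a peak. They held 16 such sites. Of these, 4 were in both sgMETTL1 lists and in neither sgNS list (in COL16A1, COL9A3, COL18A1 and COL7A1), and 0 the other way round. Over all 14330 sites these shares were 1.21% and 7.5%, and over the 690 sites 3.33% and 5.07%. Ranked by p, where 0% is the top of the list, these 4 sites stood low or midway in the sgMETTL1 lists. The ranks were 77.9% and 87.4% for COL16A1, 43.8% and 63.1% for COL9A3, 60% and 69.7% for COL18A1, and 96.8% and 77.1% for COL7A1. The COL16A1 site had folds of 8.38 and 3.53 with sgMETTL1, and the COL9A3 site 1.7 and 1.48. The COL18A1 site had folds of 1.26 and 1.22 with sgMETTL1, and the COL7A1 site 4.06 and 8.33. A further COL16A1 site had 4 and 8 blocks with sgMETTL1, against no peak and 4 blocks with sgNS, and its folds of 3.27 and 2.92 lay below the fold of 19 in sgNS replicate 2. A COL6A1 site stood in sgNS replicate 2 alone, with 4 blocks, and another in sgMETTL1 replicate 2 alone, with 5 blocks. The family was not tested.

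CCL20, a chemokine gene picked after its values were seen, had 3 and 3 blocks and folds of 41.9 and 33.6 with sgMETTL1, against 2 and 2 blocks and folds of 15.6 and 11.4 with sgNS. KRT12, a keratin gene picked in the same way, had folds of 45.7 and 38.9 with sgMETTL1, against 6.48 and 16.9 with sgNS. At both genes every sgMETTL1 value lay above every sgNS value, as folds did at 9.74% of all 5895 sites. After adjustment limma called 0 of those sites, and its adjusted p for KRT12 was 0.411. Another SPTAN1 site, present in all 4 lists, had folds of 42.5 and 27.6 with sgMETTL1, against 33.1 and 31.8 with sgNS, values that overlapped, while the other 2 sites of that gene were absent with sgNS.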
